A study of Mus musculus with 6 samples.

Results

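The hormone-responsive and chaperone genes of the prelimbic cortex (PL) were described here in 7 members. *Cdkn1a*, *Sult1a1* and *Tgm2* formed the hormone-responsive arm, a label that rests on prior knowledge since no hormone was measured on the arrays, and *Dnaja1*, *Ahsa1*, *Bag3* and *Cryab* the chaperone arm. The members were chosen by measured values: each was named through a probe that the study had selected at a difference of at least 1.2-fold on these same arrays. *Cdkn1a* was selected on the comparison of CRST with CON, and the other 6 on the comparison of CRST+RS5 with CRST. Any other comparison of a member shares a group of arrays with the one that selected it, so it is not independent of the selection. Each member had 1 probe, so the 7 genes stood for 7 of 899 probes with a gene name and of 25697 probes on the array, and all 7 passed the detection filter that kept 13083 probes.

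Glucocorticoids act through the glucocorticoid receptor, a transcription factor that waits in the cytosol in a complex with Hsp90, its co-chaperones and immunophilins, and that binds DNA or other factors in the nucleus once hormone is bound. Chaperone genes are induced by heat shock factors when unfolded protein accumulates, and the Hsp70 and Hsp90 machines they serve also fold the hormone-binding form of the receptor. The prelimbic cortex is a stress-sensitive region of the rodent medial prefrontal cortex that sends inhibitory control to the hormonal stress axis.

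Gene expression was measured on 6 bead arrays in 3 groups of 2. CON mice were naïve. CRST mice had been restrained for 2 h a day over 14 days. CRST+RS5 mice had the same treatment and were then restrained for 5 min a day over 14 days, a behavioural treatment given on top of the earlier stress. All mice were C57BL/6 males aged 3 months, tissue was taken on post-stress day 22, and each array carried RNA from the pooled PL of 6 to 7 animals, so that the pool and not the animal was the replicate. Values are log2 bead signals after quantile normalization, where a difference of 0.263 is 1.2-fold, and levels of different probes are not set against each other.

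The median signal lay between 185.6 and 230 and between 12645 and 13407 probes were detected per array. Of the 10 markers of deep-layer cortical neurons listed, 6 could be named and all 6 were detected. Of 8 general cortical neuron markers, 0 could be named, and these were not analysed here. On CRST replicate 2, all 21 detected oligodendrocyte markers had their highest value of the 6 arrays. On CRST+RS5 replicate 2, all 5 detected olfactory mucosa markers had theirs, with *Bpifb4* at 12.83 against 7.70 to 7.89 elsewhere. Another 13 named markers of that tissue did not pass the filter. The filter requires detection on both arrays of a group, so a gene detected on CRST+RS5 replicate 2 only would fail it. Whether these markers were absent from that array therefore cannot be read from the filter. The differences of the members are given with and without CRST replicate 2 or CRST+RS5 replicate 2.

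Promoters are shown for the members in which RefSeq (assembly GRCm38.p6) gave a window of 300 bases, from 250 before to 50 after the transcript start, because these are the sequences through which heat shock factors and steroid receptors could act on the genes. Windows were found for 5 of the 7 members, and where a gene had several the one with the lowest start is shown. *Tgm2* and *Cryab* are named only. Capitals mark the matches, on either strand, to a pair of heat shock units (GAANNTTC or TTCNNGAA, which can share bases with each other) or to the steroid receptor half-site (AGAACA, or TGTTCT on the other strand). The windows are chr4:40722218-40722517 (plus strand) for *Dnaja1*, chr12:87266478-87266777 (plus) for *Ahsa1*, chr7:128523333-128523632 (plus) for *Bag3*, chr17:29090729-29091028 (plus) for *Cdkn1a* and chr7:126676369-126676668 (minus) for *Sult1a1*.
Dnaja1: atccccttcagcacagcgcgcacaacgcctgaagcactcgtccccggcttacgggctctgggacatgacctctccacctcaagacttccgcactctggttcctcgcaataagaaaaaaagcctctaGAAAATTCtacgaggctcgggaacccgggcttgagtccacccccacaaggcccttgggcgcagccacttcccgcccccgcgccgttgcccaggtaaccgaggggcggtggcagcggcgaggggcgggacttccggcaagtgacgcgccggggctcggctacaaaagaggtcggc
Ahsa1: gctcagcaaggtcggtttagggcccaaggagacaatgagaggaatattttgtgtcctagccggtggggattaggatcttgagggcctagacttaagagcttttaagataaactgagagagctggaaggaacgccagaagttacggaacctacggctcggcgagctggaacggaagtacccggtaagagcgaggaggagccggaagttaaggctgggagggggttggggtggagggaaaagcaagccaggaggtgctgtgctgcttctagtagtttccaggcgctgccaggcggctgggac
Bag3: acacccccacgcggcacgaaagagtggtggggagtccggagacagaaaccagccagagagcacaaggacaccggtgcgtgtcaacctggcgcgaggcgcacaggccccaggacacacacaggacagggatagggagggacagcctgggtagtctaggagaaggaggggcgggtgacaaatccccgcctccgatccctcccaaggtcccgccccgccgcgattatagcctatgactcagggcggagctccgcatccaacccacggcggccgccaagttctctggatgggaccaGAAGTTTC
Cdkn1a: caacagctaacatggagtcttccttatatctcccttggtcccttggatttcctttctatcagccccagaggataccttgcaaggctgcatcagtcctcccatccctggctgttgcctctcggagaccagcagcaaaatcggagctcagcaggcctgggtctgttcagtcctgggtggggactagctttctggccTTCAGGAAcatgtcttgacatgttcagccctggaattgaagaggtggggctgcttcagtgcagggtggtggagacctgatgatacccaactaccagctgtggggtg
Sult1a1: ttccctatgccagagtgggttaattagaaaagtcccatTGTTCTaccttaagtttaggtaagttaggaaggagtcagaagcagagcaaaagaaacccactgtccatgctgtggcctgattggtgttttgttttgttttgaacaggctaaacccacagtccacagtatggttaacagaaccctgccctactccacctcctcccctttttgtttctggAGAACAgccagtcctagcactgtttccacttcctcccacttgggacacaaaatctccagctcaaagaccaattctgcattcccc

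A head-to-head pair of heat shock units stood at bases 127 to 134 of the *Dnaja1* window and at bases 293 to 300 of the *Bag3* window, and 7.86% of 32851 RefSeq windows of this length held one. The *Cdkn1a* window held a tail-to-tail pair at bases 195 to 202, as did 8.52% of all windows. *Sult1a1* carried the steroid receptor half-site at bases 39 to 44 and again at bases 217 to 222, against a half-site in 19.0% of all windows. The *Ahsa1* window held neither kind of match, and a second *Cdkn1a* window and 2 further *Dnaja1* windows, not shown, also lacked both. No member window held the element of 3 heat shock units (in 0.603% of windows) or the full steroid receptor palindrome (in 0.00913%). A match is a stretch of letters and not a bound site, and a window without one says only that these letters were not in it.

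In the hormone-responsive arm, *Cdkn1a* was lower in both restrained groups than in CON, whereas *Sult1a1* and *Tgm2* were highest in CRST+RS5. *Cdkn1a* encodes p21, an inhibitor of cyclin-dependent kinases that glucocorticoids and p53 can induce. Its log2 signal was 10.25 and 10.18 in CON, 10.06 and 9.69 in CRST, and 10.04 and 9.93 in CRST+RS5. Both CON arrays stood above all 4 arrays of restrained mice, and the lowest of the 6 was CRST replicate 2. The CRST mean was 0.34 below CON (1.27-fold), which is the value the gene was selected on and is given without a test. Without CRST replicate 2 the same difference was -0.16, under 1.2-fold. CRST+RS5 arrays lay inside the range of the CRST arrays, with a difference of 0.11 ± 0.12 (SE, n = 2 pools per group; 95% interval -0.16 to 0.38; limma, Benjamini-Hochberg adjusted p = 0.837). Leaving out CRST replicate 2 turned it to -0.07, and with the arrays brought to 1 common median it was -0.01. That scaling shifted all probes in this comparison by a median of -0.11. Against CON, CRST+RS5 was 0.23 ± 0.12 lower without overlap of the arrays (95% interval -0.50 to 0.04; limma adjusted p = 0.684). Without CRST+RS5 replicate 2 the differences from CRST and from CON were 0.17 and -0.17.

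*Sult1a1* encodes a phenol sulfotransferase that conjugates phenolic drugs and catechols. It measured 9.19 and 9.19 in CON, 9.05 and 9.13 in CRST, and 9.42 and 9.68 in CRST+RS5. The 3 groups did not overlap, with CRST lowest and CRST+RS5 highest. The difference it was selected on, CRST+RS5 minus CRST, was 0.46 (1.37-fold). Dropping CRST+RS5 replicate 2 left 0.33, and dropping CRST replicate 2 gave 0.50. CRST was 0.10 ± 0.10 below CON (95% interval -0.32 to 0.12; limma adjusted p = 1), and -0.14 apart without CRST replicate 2. CRST+RS5 exceeded CON by 0.36 ± 0.10 (1.28-fold; 95% interval 0.14 to 0.58; limma adjusted p = 0.519), and by 0.23 without CRST+RS5 replicate 2, which was under 1.2-fold. The comparisons with CON share the CRST or the CRST+RS5 arrays with the one that selected the gene, so they are not independent of the selection.

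*Tgm2* encodes tissue transglutaminase, which cross-links proteins. Its values were 9.48 and 9.72 in CON, 9.51 and 9.35 in CRST, and 9.80 and 9.92 in CRST+RS5. The CON and CRST arrays overlapped, and both CRST+RS5 arrays were higher than the other 4. CRST+RS5 exceeded CRST by 0.43 (1.34-fold), the value of its selection, and it was 0.35 when CRST replicate 2 was dropped and 0.37 when CRST+RS5 replicate 2 was. The difference of CRST from CON was -0.17 ± 0.11 (95% interval -0.41 to 0.07; limma adjusted p = 1), and -0.09 without CRST replicate 2. CRST+RS5 was 0.26 ± 0.11 above CON (1.197-fold, just under the criterion; 95% interval 0.02 to 0.50; limma adjusted p = 0.619), with 0.38 without CON replicate 2, 0.14 without CON replicate 1 and 0.20 without CRST+RS5 replicate 2. Leaving out CRST+RS5 replicate 2 turned the sign of no member's difference from CRST or from CON.

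Few other genes of the hormone response could be set beside these 3. Of 25 further glucocorticoid-responsive genes listed, 3 had a named probe, and of 10 genes of the receptor and its chaperone complex, 0 had one, so these were not analysed here. *Dusp1*, a phosphatase that inactivates MAP kinases, measured 12.25 and 12.17 in CON, 11.63 and 12.04 in CRST, and 11.53 and 11.61 in CRST+RS5. Both CON arrays were higher than the 4 others. The clock gene *Per2* was 0.50 higher in CRST+RS5 than in CON, and *Txnip*, an inhibitor of thioredoxin, was 0.42 higher. These probes also owe their names to the selection on these arrays, and 0 of the 3 passed limma's adjusted p of 0.05 in any comparison. *Ccng1*, a p53 target like *Cdkn1a* and the only named one of 15 listed, was 0.08 higher in CRST than in CON, while its CRST+RS5 mean lay 0.40 under the CRST mean, an order of groups unlike that of *Cdkn1a*.

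**Figure D1:**
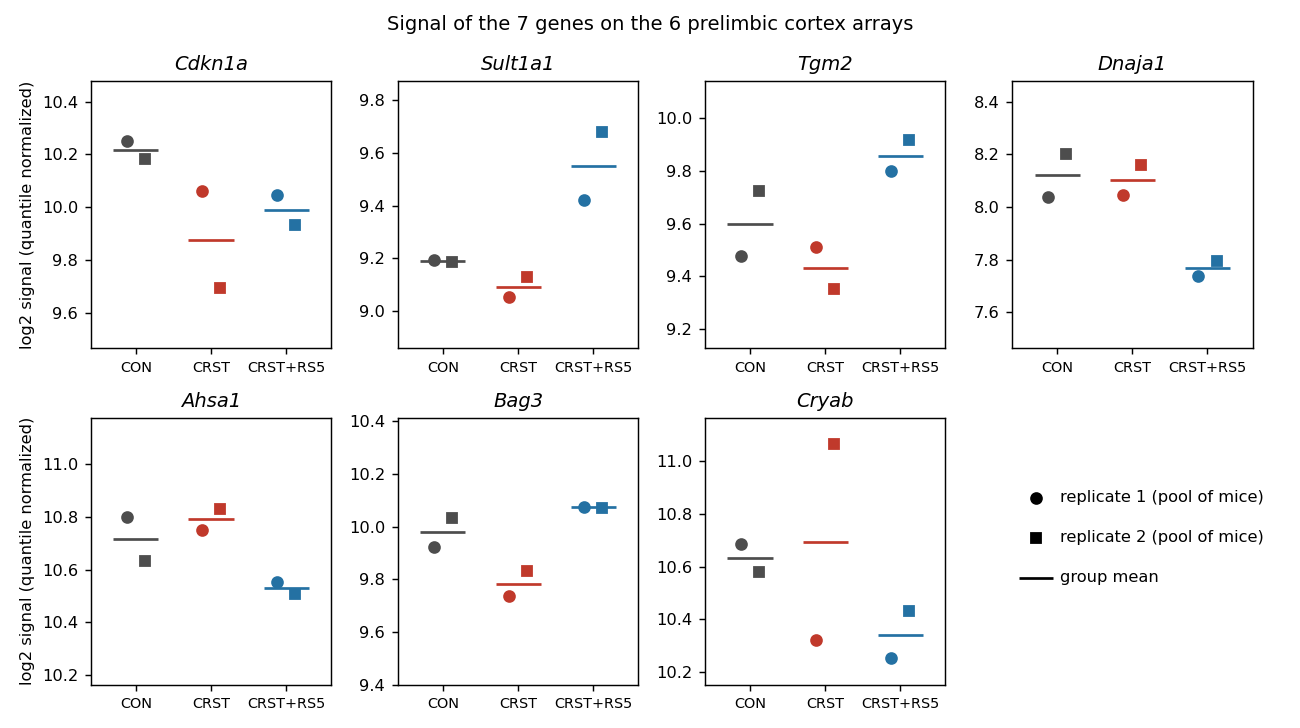
Log2 bead signal (quantile normalized, vertical axis) of the 7 genes in CON, CRST and CRST+RS5 mice. Each point is 1 array (circle, replicate 1; square, replicate 2), lines are group means, and all panels span the same number of log2 units; *Dnaja1* and *Ahsa1* were lowest on both CRST+RS5 arrays, while the CRST arrays of *Cryab* stood at 10.32 and 11.07.

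The 4 chaperone genes did not move as 1 group. *Dnaja1*, *Ahsa1* and *Cryab* had their lowest group mean in CRST+RS5 and *Bag3* its highest. *Dnaja1* encodes an Hsp40 protein that delivers clients to Hsp70 and stimulates its ATPase. It measured 8.04 and 8.20 in CON, 8.05 and 8.16 in CRST, and 7.74 and 7.79 in CRST+RS5. CON and CRST overlapped, and both CRST+RS5 arrays were lower than all others. This probe had a signal of 209.6 to 333.8 before normalization and detection p-values of 0.0388 and 0.0138 on the CRST+RS5 arrays, so its low values lay close to background. CRST+RS5 was 0.34 below CRST (1.26-fold), the value of its selection, and the size depended on the treatment of background: with normexp correction by neqc the same difference was -0.76. CRST differed from CON by -0.02 ± 0.09 (95% interval -0.22 to 0.18; limma adjusted p = 1), with either sign when 1 array was left out. CRST+RS5 was 0.35 ± 0.09 below CON (1.28-fold; 95% interval -0.55 to -0.15; limma adjusted p = 0.519) and -0.79 apart with neqc. Without CRST replicate 2, the differences of CRST+RS5 from CRST and of CRST from CON were -0.28 and -0.07. Without CRST+RS5 replicate 2, CRST+RS5 differed from CRST and from CON by -0.36 and -0.38.

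*Ahsa1* encodes Aha1, the co-chaperone that activates the ATPase of Hsp90. Its log2 signal was 10.80 and 10.63 in CON, 10.75 and 10.83 in CRST, and 10.55 and 10.51 in CRST+RS5. CRST and CON overlapped and the CRST+RS5 arrays were the lowest. Although selected at 1.2-fold, it lay just outside that criterion here, at -0.26 (1.198-fold) for CRST+RS5 minus CRST, and just inside it at -0.27 in the log2 table that the authors deposited. The nearest member inside was *Bag3*, at 0.29 (1.22-fold). *Ahsa1* passed 1.2-fold under 3 of 9 other processing settings, but those that changed only the detection filter, the block or the groups fitted could not move it. CRST differed from CON by 0.08 ± 0.09 (95% interval -0.12 to 0.27; limma adjusted p = 1) and by -0.01 without CON replicate 2. CRST+RS5 was 0.19 ± 0.09 below CON (95% interval -0.38 to 0.01; limma adjusted p = 0.641). With CRST replicate 2 left out, CRST+RS5 differed from CRST by -0.22 and CRST from CON by 0.04. With CRST+RS5 replicate 2 left out, its differences from CRST and from CON were -0.24 and -0.16.

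*Bag3* encodes a nucleotide exchange factor of Hsp70 that guides damaged proteins to autophagy. The arrays gave 9.92 and 10.03 in CON, 9.74 and 9.83 in CRST, and 10.08 and 10.07 in CRST+RS5. The 3 groups did not overlap: CRST was lowest and CRST+RS5 highest, the order also seen for *Sult1a1*. CRST lay 0.19 ± 0.08 below CON (95% interval -0.38 to -0.01; limma adjusted p = 1). That comparison shares the CRST arrays with the one that selected the gene, so neither it nor the order of groups is independent of the selection. The difference of its selection, CRST+RS5 minus CRST, was 0.29, and it was 0.16 when arrays were scaled to a common median. CRST+RS5 was 0.10 ± 0.08 above CON (95% interval -0.09 to 0.28; limma adjusted p = 0.806). When CRST replicate 2 was left out, CRST+RS5 exceeded CRST by 0.34 and CRST differed from CON by -0.24. When CRST+RS5 replicate 2 was left out, the differences from CRST and from CON were 0.29 and 0.10.

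*Cryab* encodes the small heat shock protein αB-crystallin, which holds unfolded proteins in a soluble state and which in brain is abundant in glia. Its values were 10.69 and 10.58 in CON, 10.32 and 11.07 in CRST, and 10.25 and 10.43 in CRST+RS5. The CRST replicates were the farthest apart of any pair among the 7 genes, 0.74, and replicate 2 was the highest of the 6 arrays. The value of its selection, CRST+RS5 minus CRST, was -0.35 (1.28-fold). Without CRST replicate 2 it was 0.02, and without CRST replicate 1 it was -0.72. CRST differed from CON by 0.06 ± 0.20 (95% interval -0.39 to 0.52; limma adjusted p = 1), by -0.31 without CRST replicate 2 and by 0.43 without replicate 1. CRST+RS5 was 0.29 ± 0.20 below CON without overlap (1.22-fold; 95% interval -0.75 to 0.16; limma adjusted p = 0.762), a difference of means that leaves out the CRST arrays, although the error and the p come from the spread over all 6 arrays. With only CON and CRST+RS5 fitted, the limma adjusted p was 0.492. Without CRST+RS5 replicate 2 the differences from CRST and from CON were -0.44 and -0.38.

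The wider chaperone network could hardly be read. Of 28 further heat shock genes listed, 0 had a named probe, and they were not analysed here. Of 14 chaperones of the endoplasmic reticulum, 2 were named. *Dnajb9*, a co-chaperone of BiP, was 0.29 lower and *Fkbp10*, a collagen prolyl isomerase, was 0.34 higher in CRST+RS5 than in CRST, the comparison on which both had been selected, and neither reached an adjusted p of 0.05 in any comparison with limma.

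Set against all probes, the members stood as follows. Between CRST and CON, 1 of the 7 was lower by at least 1.2-fold (*Cdkn1a*, by its selection), where 0.864% of the 13083 probes were, and 0 were higher, where 0.78% of probes were. The arrays of these groups did not overlap for 3 members (*Cdkn1a*, *Sult1a1* and *Bag3*), where 29.3% of all probes did not. *Cdkn1a* was selected on this comparison and the other members on one that shares its CRST arrays, so this count is not independent of the choice. The median difference was -0.10 over the members and 1e-04 over all probes. Between CRST+RS5 and CRST, 3 members exceeded 1.2-fold upwards and 2 downwards, which follows from their selection, where 2.89% and 1.75% of probes did. Here 5 members did not overlap, *Cdkn1a* and *Cryab* being the exceptions, against 38.7% of probes. All 5 had been selected on this comparison. Between CRST+RS5 and CON, 1 member (*Sult1a1*) was higher and 2 (*Dnaja1* and *Cryab*) lower by at least 1.2-fold, where 2.57% and 1.31% of probes were, and all 7 members did not overlap, where 40% of probes did not. This comparison selected no member but shares arrays with both that did, so the counts are not independent of the choice.

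In limma's test across 13083 probes, 0 probes (0%) passed an adjusted p of 0.05 between CRST and CON, between CRST+RS5 and CRST, or between CRST+RS5 and CON. For a member in the comparison that selected it, this count is a description. At an unadjusted p under 0.05 there were 428, 1107 and 1045 probes in these comparisons, and 350, 1019 and 1158 when only the groups compared were fitted, which also gave 0 adjusted calls. With 2 pools a group, a permutation of arrays cannot give a two-sided p below 0.333. Of the 14 intervals given above, 13 reached past a difference of 1.2-fold, the exception being *Dnaja1* between CRST and CON.

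**Figure D2:**
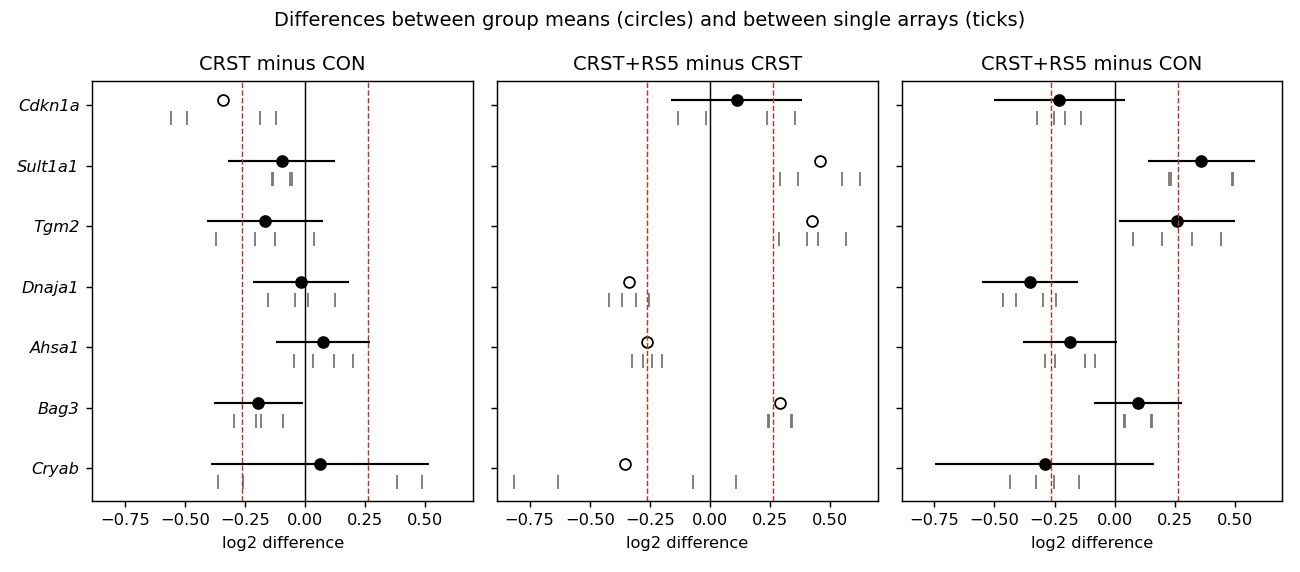
Log2 difference between group means (horizontal axis) of the 7 genes in the 3 comparisons. Filled circles have 95% limma intervals, open circles are the comparisons that selected the gene and carry none, ticks are the 4 differences between single arrays, and dashed lines mark 1.2-fold (0.263); for *Cryab* in CRST+RS5 minus CRST the ticks fall on both sides of 0.

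Each member was set beside the named, detected probe whose values were most like its own over the 6 arrays. These Pearson correlations, taken over 678 candidates and only 6 points that share the same arrays, are a description. *Sult1a1* was closest to *Ltbp4* (r = 0.999), a matrix protein that binds latent TGF-β, and then to *Gkn3* (0.993). *Tgm2* was closest to the MHC class II gene *H2-Ab1* (0.997) and to the lysozyme gene *Lyz* (0.995). *Bag3* ran with *Loxl1* (0.969), a cross-linker of elastin, and *Angpt2* (0.967), a ligand of the vascular receptor Tie2. *Cryab* ran with *Ugt8a* (0.975), which makes the galactolipid of myelin, and *Anln* (0.973), an actin-binding protein. *H2-Ab1* and *Ugt8a* are also on the macrophage and oligodendrocyte marker lists used below, so the comparisons with those lists share probes with these. *Cdkn1a* was nearest to *Flrt1* (0.994) and *Cit* (0.973), *Dnaja1* to the proton pump subunit *Atp6v1g2* (0.995) and *Srp54* (0.976), and *Ahsa1* to *Prdm10* (0.978) and *Ccng1* (0.968).

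Marker genes of other cell types differed between the same arrays. In such bulk tissue fewer cells of a type and less RNA per cell cannot be told apart, and the marker genes were named through the study's selection, so that they are not independent evidence. The pairing of a gene with a list was made after the values were seen. *Cryab* was highest on CRST replicate 2, by 0.43 over the CON mean, where the 21 detected of 22 named oligodendrocyte markers (29 listed; *Ppp1r14a* not detected) had a median of 0.86 over the CON mean against -0.23 to 0.04 on the other 5 arrays. Their summed signal was 88820 and 94110 in CON, 78150 and 168700 in CRST, and 80470 and 92170 in CRST+RS5, and *Mbp* stood at 15.24 on that array and at 13.97 to 14.31 on the others. Without that array the difference of *Cryab* between CRST+RS5 and CRST was 0.02, but leaving an array out removes everything measured on it. Between CRST+RS5 and CON, *Cryab* differed by -0.29 and these markers by a median of -0.12. The part of oligodendrocyte RNA in the *Cryab* values was not tested.

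*Bag3* had the same order of groups as the 22 named meningeal fibroblast markers of 24 listed, all of which passed the detection filter. Their median over the CON mean was -0.53 and -0.08 in CRST and 0.58 and 0.74 in CRST+RS5. One of them, *Crabp2*, was detected on 2 arrays only and was highest in CRST+RS5. A marker detected on 2 arrays passes the filter through a single group, so its being high in that group is not independent of the filter. Their summed signal ranged from 15860 to 23160 in CON, 11920 to 17750 in CRST and 33190 to 34580 in CRST+RS5, and *Ptgds*, *Igf2* and *Mgp* were among them. For *Sult1a1*, the 5 named mural cell markers of 10 listed, among them *Acta2*, *Mylk* and *Smtn*, had medians of -0.17 and -0.11 in CRST and 0.23 and 0.47 in CRST+RS5, beside -0.14 and -0.06 and then 0.23 and 0.49 for the gene itself. Their summed signal was 3772 to 4554 in CON, 2816 to 3756 in CRST and 5384 to 7371 in CRST+RS5. *Sult1a1* was highest on CRST+RS5 replicate 2, where the 5 detected olfactory mucosa markers had a median of 1.05, against 0.03 on replicate 1. For *Tgm2*, the 7 detected of 8 named macrophage markers (12 listed; *H2-Aa* not detected), among them *Mrc1*, *H2-Ab1* and *Cd74*, had medians of -0.20 and -0.29 in CRST and 0.29 and 0.35 in CRST+RS5, beside -0.09 and -0.25 and then 0.20 and 0.32 for *Tgm2*. Their summed signal was 1729 to 2096 in CON, 1599 to 1643 in CRST and 2326 to 2578 in CRST+RS5. The 6 detected endothelial markers (7 named, 12 listed; *Gpihbp1* not detected) were likewise higher on the CRST+RS5 arrays, with medians of 0.29 and 0.36 against -0.17 and 0.01 in CRST. Among them, *Sox17* was detected on 2 arrays only and was highest in CRST+RS5, so the same limit of the filter holds for it. Their summed signal was 8812 to 9704 in CON, 8546 to 9125 in CRST and 11050 to 11400 in CRST+RS5. The part of these cells in the values of *Bag3*, *Sult1a1* and *Tgm2* was not tested.

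**Figure D3:**
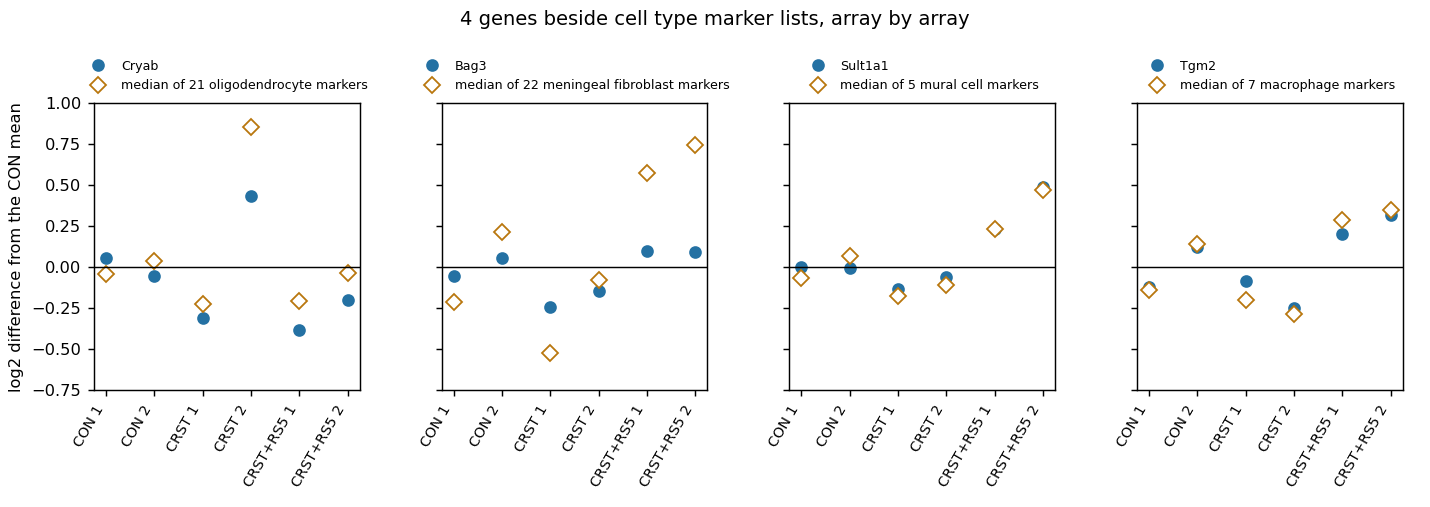
Log2 difference from the CON mean (vertical axis) on each of the 6 arrays for 4 genes (filled circles) and for the median of a cell type marker list (open diamonds). *Cryab* and the oligodendrocyte markers share their peak on CRST replicate 2, and *Bag3*, *Sult1a1*, *Tgm2* and the lists beside them are highest in CRST+RS5.

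*Dnaja1* and *Ahsa1*, which were lowest on both CRST+RS5 arrays, went with the 6 detected deep-layer neuron markers in direction. *Cryab*, set beside the oligodendrocyte markers above, also had its lowest group mean in CRST+RS5. These markers, among them *Tle4*, *Tbr1* and *Fezf2*, had medians of -0.03 and 0.23 in CRST and -0.36 and -0.14 in CRST+RS5, and summed signals of 15940 to 20940 in CRST, 12920 to 15840 in CRST+RS5 and 16300 to 17390 in CON. *Dnaja1* stood at -0.07 and 0.04 in CRST and at -0.38 and -0.33 in CRST+RS5, and *Ahsa1* at 0.04 and 0.12 and then at -0.16 and -0.21. The 6 astrocyte markers named of 12 had medians of -0.14 and -0.16 from the CON mean in CRST and of 0.15 and 0.09 in CRST+RS5, and summed signals of 22530 to 22890 in CON, 20300 to 20320 in CRST and 24880 to 25600 in CRST+RS5. Between CRST+RS5 and CRST, 5 of these markers were higher by at least 1.2-fold and 1, *Aldh1l1*, was lower. *Aldh1l1* was highest in CRST and was detected on 2 arrays only, so it passed the filter through a single group. The exception rests on this probe. The part of either cell type in these values was not tested.

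**Figure D4:**
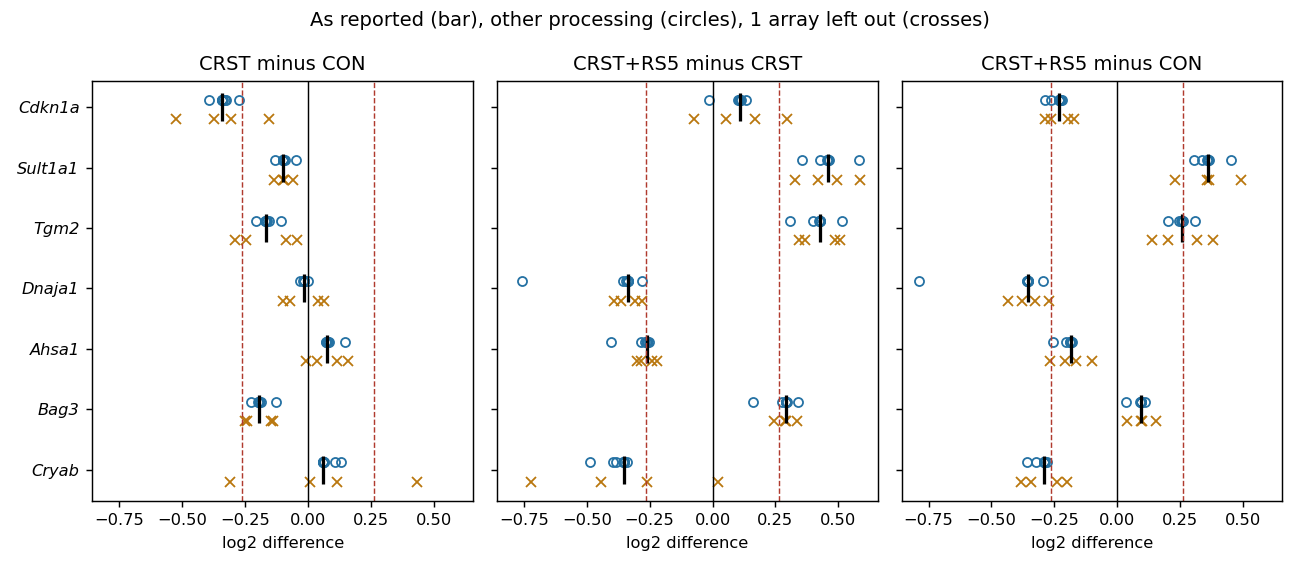
Log2 difference (horizontal axis) of each gene as reported (black bar), under the 9 other processing settings (circles) and with 1 array left out (crosses), with dashed lines at 1.2-fold. The crosses of *Cryab* in CRST+RS5 minus CRST span -0.72 to 0.02, and the circle of *Dnaja1* at -0.76 is the background correction by neqc.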

How the data were processed

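The members and all gene lists were chosen with earlier results of these data known. The authors deposited the average bead signal intensity of each probe with a detection p-value per array, and a second table that holds quantile-normalized log2 values. Signals were extracted with GenomeStudio per the study's methods. Whether background was subtracted was not given in the sources used here. From the deposited intensities, log2 values were calculated and quantile normalized with limma 3.58.1 under R 4.3.3. No background was corrected. The values correlated with the deposited log2 values at r = 0.99999595 on every array. A probe was retained if both arrays of any group had a detection p below 0.05. Group means were compared in 1 limma fit of all 6 arrays, with Benjamini-Hochberg adjustment over 13083 probes. This fit was tested on simulated data with known changes. Differences of a member on the comparison that selected it are printed without a p. The number of arrays limits the precision.

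Gene names came from the probe, accession and symbol columns of the study's selected lists (884 symbols; 851 probes matched a RefSeq accession), and no fold change there was used. Genes named are the members, the named probes of the listed glucocorticoid, receptor complex, chaperone and p53 genes, the 2 probes most like each member, and the 3 markers with the highest mean signal in a list that moved with a member. *Bpifb4* was named after its values were seen, and so were markers without detection or with detection on 2 arrays only. Replicate numbers were not used to pair the arrays, because no source ties a number to 1 of the study's independent sets, and the data do not settle it: the deviations of same-numbered arrays correlated at 0.247, 0.0509 and 0.259 over probes for CON with CRST, CON with CRST+RS5 and CRST with CRST+RS5. Alternatives covered the normalization, background correction, the deposited log2 table, a pseudocount of 50, stricter and looser detection filters, leaving out single arrays, blocking on the replicate number, the groups fitted and the definition of the fold.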

Additional observations from a re-analysis of the deposited data

How the results depend on the processing

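Over 9 processing settings, 188 of 189 differences of the 7 genes kept their direction, as did 78 of 84 with 1 array left out. Changing the detection filter, the block or the groups fitted cannot alter a difference of means, so agreement under those settings was fixed in advance. In comparisons that had not selected the gene, the smallest limma adjusted p under any alternative was 0.251 (*Dnaja1*, CRST+RS5 minus CON, with a replicate block). Scaling to a common median turned *Cdkn1a* in CRST+RS5 minus CRST to -0.0144. With 1 array left out this difference ranged from -0.0743 to 0.296, that of *Cryab* from -0.7238 to 0.0196, and those of CRST minus CON from -0.0993 to 0.0658 for *Dnaja1*, from -0.0083 to 0.1595 for *Ahsa1* and from -0.3105 to 0.4329 for *Cryab*. The number of genes past 1.2-fold was 1 to 2 between CRST and CON, with 2 without CON replicate 1 or CRST replicate 1. It was 4 to 6 between CRST+RS5 and CRST. It was 2 to 6 between CRST+RS5 and CON, with 6 without CON replicate 2. In CRST+RS5 minus CRST, median scaling moved *Tgm2* to 0.31, *Ahsa1* to -0.41 and *Bag3* to 0.16, and neqc moved *Dnaja1* to -0.76 and *Bag3* to 0.34. In CRST+RS5 minus CON, neqc gave -0.79 for *Dnaja1*. The causes were not tested. With the replicate number as a replicate block, 1, 5 and 3 genes passed 1.2-fold in the 3 comparisons. These counts say nothing about robustness, because the block cannot alter a difference of means. The block could change only the adjusted p, whose smallest value in a comparison that had not selected the gene was the 0.251 given above. Where an array was left out, the lone array was assumed to vary like the other groups. Signal over background limits *Dnaja1* most.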
